A study of Mus musculus with 4 samples.

Results

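Regulatory dendritic cells (DCreg) were compared with the LPS-matured dendritic cells (maDC) from which they were made, over all microRNAs (miRNAs) that reached 10 ppm in either library. Levels are shares of the deposited values of a library, in parts per 1000000 (ppm), summed over the hairpins that give the same mature miRNA. This limit kept 305 of 1078 mature miRNA names, and these held 99.9% of the deposited values in both libraries. The study sequenced small RNA from 4 mouse cell types, with 1 library each, and 2 of the 4 are compared here. All cells came from C57BL/6J mice of 5 to 6 weeks. The maDC grew from bone marrow in GM-CSF (10 ng/mL) with IL-4 (1 ng/mL). LPS at 10 ng/mL was added from day 4, and the cells were taken at day 8 on CD11c beads. The DCreg had the same start and were then kept for at least 7 days on splenic stromal cells of endothelial-like type in medium with 5% FCS. Trypsin at 0.1%, with EDTA at 5 mM, released them, and they were again taken on CD11c beads. The series describes DCreg as cells that make IL-10 and nitric oxide. Stem cells (HSC) and immature dendritic cells (imDC) of the series are given only beside values of these libraries.

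A miRNA is cut as a short hairpin from a longer transcript, and either arm of the hairpin (named 5p or 3p) can enter an Argonaute protein. Bases 2 to 8 from the 5′ end, the seed, pair with target messages, so miRNAs with one seed share many predicted targets. Hairpins that lie close together are often cut from one transcript. In dendritic cells, LPS acts through Toll-like receptor 4 and NF-kB, which induce miR-155, miR-9, miR-132, miR-212 and miR-146. There is 1 library a side, so no test and no p-value can be given, and no difference has a replicate check. Exposure to stroma, longer culture, trypsin and purity after the beads cannot be told apart from the cell type. Fewer cells of a kind and less RNA per cell cannot be told apart either.

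The mature sequences that the results turn on are shown first, 5′ to 3′ with T for U as the deposited table has them, and with the seed in capitals. The first set holds 5 groups with one seed each, because their members moved together or against one another.
let-7a-5p: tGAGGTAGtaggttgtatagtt
let-7c-5p: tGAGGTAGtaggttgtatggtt
let-7e-5p: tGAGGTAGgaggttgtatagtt
let-7f-5p: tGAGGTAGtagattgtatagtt
miR-125a-5p: tCCCTGAGaccctttaacctgtga
miR-125b-5p: tCCCTGAGaccctaacttgtga
miR-351-5p: tCCCTGAGgagccctttgagcctg
miR-99a-5p: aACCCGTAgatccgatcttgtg
miR-99b-5p: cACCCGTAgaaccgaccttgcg
miR-100-5p: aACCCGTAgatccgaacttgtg
miR-132-3p: tAACAGTCtacagccatggtcg
miR-212-3p: tAACAGTCtccagtcacggcca
miR-221-3p: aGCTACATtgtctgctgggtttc
miR-222-3p: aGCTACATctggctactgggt

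The second set holds pairs that share a seed. In the first and second pair the members differed in opposite directions, and in the third both were higher in DCreg.
miR-148a-3p: tCAGTGCActacagaactttgt
miR-152-3p: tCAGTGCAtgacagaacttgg
miR-92a-3p: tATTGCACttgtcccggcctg
miR-92b-3p: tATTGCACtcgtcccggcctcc
miR-27a-3p: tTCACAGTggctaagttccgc
miR-27b-3p: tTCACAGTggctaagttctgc

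The third set holds miRNAs with large ratios, and both forms of miR-140-3p, whose seed depends on where its reads start.
miR-155-5p: tTAATGCTaattgtgataggggt
miR-9-5p: tCTTTGGTtatctagctgtatga
miR-147-3p: gTGTGCGGaaatgcttctgcta
miR-31-5p: aGGCAAGAtgctggcatagctg
miR-129-5p: cTTTTTGCggtctgggcttgc
miR-344d-3p: gATATAACcactgccagactga
miR-182-5p: tTTGGCAAtggtagaactcacaccg
miR-30a-5p: tGTAAACAtcctcgactggaag
miR-322-3p: aAACATGAagcgctgcaacac
miR-140-3p as deposited: tACCACAGggtagaaccacgg
miR-140-3p starting 1 base later: aCCACAGGgtagaaccacgga

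Of these 305 miRNAs, 72 were higher in DCreg by 2-fold or more (23.6%), 85 were lower by as much (27.9%) and the rest lay between. The median log2 ratio of DCreg over maDC was -0.25, with quartiles of -1.08 and 0.82. Of the 72, 36 were at least 4-fold higher, and of the 85, 24 were at least 4-fold lower. The split depends on the scaling. Scaling by the median of ratios added 0.27 to every log2 ratio and gave 79 higher and 57 lower. Leaving the 5 most abundant miRNAs out of the totals added 0.37 and gave 83 higher and 46 lower. All reads as the total took 0.29 away (a log2 shift of -0.29) and gave 59 higher and 111 lower. The trimmed mean of M-values gave 72 and 83.

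The deposited lists of unique reads were recounted on the mature sequences by exact match, which placed 84.0% of 6572858 maDC reads and 80.1% of 4904897 DCreg reads. Recounted folds carry exact 95% intervals (Clopper-Pearson, conditional on the 2 counts), which cover counting error only, since the reads were amplified and carry no identifiers of single molecules. Among the 269 tested miRNAs with at least 10 recounted reads over the 2 libraries, 59 were higher in DCreg (21.9%) and 76 lower (28.3%) by the deposited values. Of the 59, 56 had the same direction in the recount and 49 were again at least 2-fold. Of the 76, all 76 kept the direction and 72 were again at least 2-fold. With the 10 ppm limit set on recounted reads, 39 miRNAs were higher by this measure (17.6% of those at the limit) and 68 lower (30.8%).

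**Figure D1:**
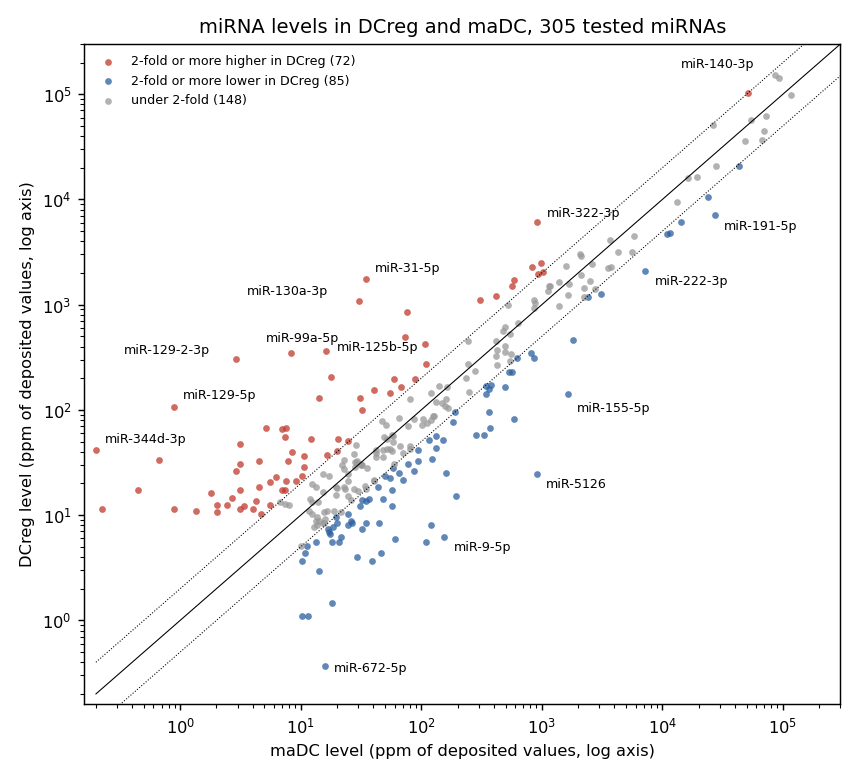
Level in DCreg against level in maDC for the 305 tested miRNAs, in ppm of the deposited values on log axes; the solid line marks equal levels and dotted lines 2-fold. A value of 0 is drawn at the left edge (miR-344d-3p in maDC). The higher miRNAs reach farther from the line at low maDC levels. The limit shapes this, since 41 miRNAs reached 10 ppm in DCreg alone and 40 in maDC alone, which fixes their direction. miR-155-5p, at 1651 and 140.9 ppm, stands among the lower ones.

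The miRNAs listed as targets of TLR and NF-kB signalling were mostly lower in DCreg. Of the 15 miRNAs of the TLR and NF-kB list that were tested, 10 were at least 2-fold lower and 1 was higher. Of all tested miRNAs 27.9% were lower and 23.6% higher. The list's median log2 ratio was -2.46 beside -0.25 for all tested miRNAs. Both arms of miR-155, miR-9 and miR-212 count among the 10, and the list was chosen with earlier results of these data known. miR-155-3p and both arms of miR-9 reached 10 ppm in maDC alone, which fixed their direction. The list summed to 102954 ppm in maDC and 51202 in DCreg. In imDC, which had no LPS, the list summed to 125107 ppm, so the maDC sum was not above that of these cells without LPS. Most of the maDC sum was miR-146a-5p with miR-146b-5p (67894 ppm together), miR-221-3p (24002) and miR-222-3p (7240). The sum therefore says little of the other members. The maDC value of miR-155-5p, which promotes cytokine release and antigen presentation by activated dendritic cells, was 1651 ppm and its DCreg value 140.9 ppm (recount 12.7-fold lower, 11.4 to 14.2). In imDC it was higher still, at 2609 ppm, and in HSC it was 47.6 ppm. Its other arm, miR-155-3p, stood at 18.3 and 1.47 ppm, so both arms were lower to nearly the same degree, with log2 ratios of -3.55 and -3.48. The hairpin lies on chromosome 16 (GRCm38, 84714140 to 84714204, plus strand) in an exon of the non-coding Mir155hg.

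miR-9, which is induced through NF-kB in myeloid cells, was the most reduced of the list. miR-9-5p had 156 ppm in maDC against 6.24 in DCreg, 24.9-fold lower (recount 18.0-fold, 14.1 to 23.3). miR-9-3p stood at 110 and 5.50 ppm, 19.98-fold lower (recount 21.8-fold, 15.7 to 31.3). Neither arm reached 1 ppm in HSC, so DCreg lay between HSC and maDC.

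miR-212 and miR-132, made from one transcript that activated cells induce, followed (chromosome 11, 75173388 to 75173747, plus strand). Their cluster had 785 ppm in maDC against 139 in DCreg, 6.52-fold lower by recount (5.74 to 7.44). miR-212-5p was 12.8-fold lower and miR-212-3p 6.28-fold, while miR-132-3p was 5.50-fold lower. miR-132-5p, at 59.9 and 30.8 ppm, stayed under 2-fold by the deposited values and was 3.13-fold lower by recount (2.13 to 4.72). miR-147-3p, a damper of macrophage cytokine release, was 7.17-fold lower at 589 and 82.2 ppm (recount 6.44-fold, 5.54 to 7.52).

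miR-221-3p and miR-222-3p, which lower the cell cycle inhibitor p27, were among the abundant members that were lower. miR-221-3p had 24002 ppm in maDC against 10475 in DCreg, and miR-222-3p at 7240 and 2106 ppm. The latter was 3.44-fold lower (recount 3.65-fold, 3.53 to 3.76). The level of miR-222-3p in DCreg was below that in HSC (2839 ppm).

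The miR-146 pair, which dampens TLR signalling through TRAF6 and IRAK1, moved against each other. miR-146a-5p was the member of the list that was higher, at 309 ppm in maDC and 1115 in DCreg, 3.61-fold (recount 3.07-fold, 2.87 to 3.29). miR-146b-5p was far more abundant and stood at 67585 and 36546 ppm, 1.85-fold lower and under the 2-fold limit (recount 1.34-fold, 1.32 to 1.35). Their shared seed summed to 67894 ppm in maDC and 37661 in DCreg. The sequences have the same first 17 bases of 22, so reads cut before that are divided between them in the recount.

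**Figure D2:**
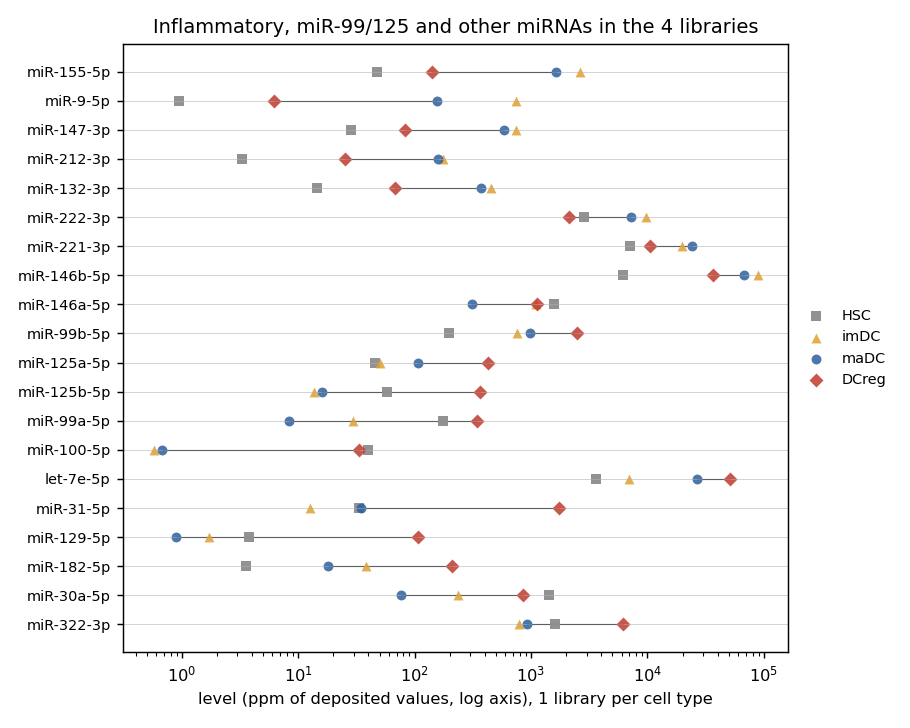
Levels of 20 miRNAs in the 4 libraries (ppm of deposited values, log axis, 1 library per cell type), with a line from maDC to DCreg. The inflammatory miRNAs at the top stand lower in DCreg than in maDC except miR-146a-5p, and the miR-99, miR-125 and other miRNAs below them stand higher.

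Most of the miR-99, miR-125 and let-7e group was higher in DCreg. Its 3 clusters, each joining a miR-99 or miR-100, a let-7 and a miR-125 gene, are known from haematopoietic stem cells, where miR-125 favours survival and self-renewal. Of 11 tested members of the progenitor list, 10 were higher by 2-fold or more and none was lower, beside 23.6% and 27.9% of all tested miRNAs. The median log2 ratio was 2.30 beside -0.25 over all. Of the 10, miR-99a-5p, miR-100-5p, miR-10b-5p and miR-196b-5p reached 10 ppm in DCreg alone, so the limit fixed their direction. This list was chosen with earlier results of these data known. Of the 10, miR-10a-5p and let-7c-5p stood at the limit, both 2.01-fold higher, and miR-10a-5p was 1.91-fold higher by recount.

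miR-99a-5p had 8.27 ppm in maDC against 345 in DCreg, 41.7-fold higher (recount 40.5-fold, 27.4 to 62.4). miR-100-5p stood at 0.670 and 33.4 ppm, from 2 and 78 recounted reads (recount 54.8-fold, 14.7 to 460.3). miR-125b-5p stood at 16.1 and 363 ppm (recount 24.9-fold, 20.2 to 31.0). In imDC these miRNAs stood at 29.7, 0.571 and 13.5 ppm and in HSC at 175, 39.7 and 58.0 ppm. In DCreg, miR-99a-5p and miR-125b-5p therefore stood above the stem cell library, and miR-100-5p slightly below it. miR-10b-5p, a Hox cluster miRNA, stood at 7.37 and 55.4 ppm, from 1 and 104 recounted reads.

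The members of the third cluster were more abundant in maDC and had smaller ratios. miR-99b-5p stood at 987 and 2497 ppm (2.53-fold), miR-125a-5p at 108 and 423 ppm (3.93-fold) and let-7e-5p at 26478 and 51264 ppm (1.94-fold; recount 2.05-fold). Their cluster, within Spaca6 (chromosome 17, 17830188 to 17830879, plus strand), summed to 27668 and 54326 ppm, 2.07-fold higher by recount (2.05 to 2.08). The cluster of miR-99a and let-7c-1, in an intron of Mir99ahg (chromosome 16, 77598936 to 77599750, plus strand), summed to 25720 and 51621 ppm. Within it miR-99a-5p was 41.7-fold higher and let-7c-5p, which other hairpins also give, 2.01-fold. The cluster of miR-100 and let-7a-2, in an intron of 3110039I08Rik (chromosome 9, 41531425 to 41536811, plus strand), went the other way as a sum. It had 25898 and 18578 ppm, 1.40-fold lower by recount (1.40 to 1.41), since let-7a-5p, which other hairpins also give, makes up nearly all of it.

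By seed, the miR-125a, miR-125b and miR-351 family went from 134 to 810 ppm, 7.70-fold higher by recount (6.99 to 8.50). All 3 members were higher. The family of miR-99a, miR-99b and miR-100 went from 996 to 2875 ppm, 2.81-fold by recount (2.69 to 2.93), and again all 3 members were higher. Of these, miR-99a-5p and miR-100-5p reached 10 ppm in DCreg alone. Of 58 seed families at 10 ppm or more, 12 were at least 2-fold higher (20.7%) and 14 lower (24.1%). Among the 12, the family of miR-130 and miR-301 was lower by recount. That of the miR-129 3p arms had 0 and 0.509 recounted ppm in maDC and DCreg.

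Large ratios were also seen for single miRNAs that were low in maDC. miR-344d-3p was listed at 0 in maDC and at 41.8 ppm in DCreg, at least 62.4-fold higher when the floor of 3 units stands for 0. The recount found 0 reads in maDC and 258 in DCreg, for which the exact interval has a lower limit of 97.5-fold, and the deposited value was 0 in HSC and imDC too. miR-129-5p, known from brain, stood at 0.894 and 107 ppm (recount 108-fold, 49.2 to 296). miR-31-5p, which in T cells restrains Foxp3, had 34.9 ppm in maDC against 1738 in DCreg. It is given by a hairpin on chromosome 4 (88910557 to 88910662, minus strand) and was 85.6-fold higher by recount (66.3 to 112). miR-92b-3p stood at 5.14 and 67.5 ppm, 13.1-fold higher (recount 13.5-fold, 8.42 to 22.98). These miRNAs differ in seed, in chromosome and in their HSC level, which was 3.79 ppm for miR-129-5p and 33.1 for miR-31-5p.

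The further large ratios on the lower side named here came from miRNAs listed at 15.9 to 905 ppm in maDC. miR-5126 was listed at 905 ppm in maDC and 24.6 in DCreg, 36.8-fold lower, but its 113 and 18 recounted reads gave a fold of 4.47 (2.704 to 7.81). miR-672-5p was listed at 15.9 and 0.367 ppm, and its 51 and 1 recounted reads gave a 36.3-fold lower value with an interval of 6.23 to 1462. miR-296-3p stood at 120 and 8.07 ppm (recount 11.9-fold lower, 8.17 to 17.9). For miR-296-3p the HSC and imDC values of 149 and 143.02 ppm were near that of maDC, so DCreg stood apart from the other three libraries. miR-187-3p, which lowers TNF in LPS-treated monocytes, stood at 60.6 and 5.87 ppm (recount 14.1-fold lower, 8.66 to 24.4). miR-455-3p (38.9 and 3.67 ppm) and miR-760-3p (46.3 and 4.40 ppm) followed, at 9.61-fold and 12.2-fold lower by recount.

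The miR-182, miR-96 and miR-183 cluster, which represses FOXO factors, was higher as a whole (chromosome 6, 30165918 to 30169737, minus strand). It summed to 31.3 ppm in maDC and 317 in DCreg, 13.1-fold by recount (10.7 to 16.1), and its 3 tested members were all higher. miR-182-5p held most of it, at 17.9 and 208 ppm. miR-183-5p stood at 4.47 and 32.6 ppm, and miR-183-3p at 6.93 and 66.0 ppm. Both arms of miR-183 reached the limit for testing in DCreg alone, which fixed their direction. Among the tested members, miR-182-5p alone was free to go either way.

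On the X chromosome, the cluster from miR-450b to miR-322 (53047997 to 53054349, minus strand) summed to 1897 and 7638 ppm, 3.69-fold higher by recount (3.57 to 3.81). Of its 8 tested members, 7 were higher, among them miR-351-3p, which reached 10 ppm in DCreg alone. miR-322-3p held most of the gain, at 918 ppm in maDC and 6102 in DCreg, 6.65-fold (recount 6.79-fold, 6.48 to 7.11), and miR-322-5p, a brake on cyclins, was 6.72-fold higher. The exception was miR-503-5p, at 863 and 928 ppm (recount 1.04-fold, 0.977 to 1.10). miR-503 and miR-322 are processed from one transcript, and their ratios differed by more than the counting intervals.

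Of 48 clusters (hairpins at most 10 kb apart on one strand) at 10 ppm or more, 11 had a 2-fold or higher sum in DCreg (22.9%) and 12 a sum lower by as much (25%). Of the 11, only those of miR-99a, of miR-450b to miR-322 and of miR-182 had more than 1 tested member. miR-344d-3p and miR-1a-3p each count in more than 1 of them. That of miR-770 to miR-136 had no tested member, and 5 recounted reads in maDC and 0 in DCreg. Of the 12, those of miR-449a and of miR-130b had 1 tested member each. The clusters of miR-344d, of miR-224 with miR-452 and of miR-182 had the largest ratios, the second of these from 0 and 14 recounted reads. The clusters of miR-9-1, of miR-132 and miR-212, of miR-449a, of miR-191 and miR-425, and of miR-200a, miR-200b and miR-429 had the smallest. That of miR-449a rests on 43 and 2 recounted reads. That of miR-191 and miR-425 was 2.05-fold lower by recount (1.71 to 2.46), which counted no read of miR-191-5p. In the cluster of miR-200a, miR-200b and miR-429, all 4 tested members were lower. Its sum went from 118 to 41.5 ppm (recount 3.14-fold lower, 2.49 to 4.00). Of its members, both arms of miR-200b reached 10 ppm in maDC alone, which fixed their direction. The miR-17-92 cluster, a promoter of proliferation, stood at 1146 and 510 ppm, 2.23-fold lower by recount (2.08 to 2.40). In 3 of 35 clusters with at least 2 tested members, 1 member was at least 2-fold higher and another lower.

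The miR-30 family, which acts in differentiation and autophagy, differed between its members. Of 10 tested arms, 4 were at least 2-fold higher and none was lower, beside 23.6% and 27.9% of all tested miRNAs. The median log2 ratio was 0.49 beside -0.25 over all. Of the 4, miR-30a-3p and miR-30c-2-3p reached 10 ppm in DCreg alone, so the limit fixed their direction. miR-30a-5p led, at 76.6 ppm in maDC and 856 in DCreg (recount 10.3-fold, 9.004 to 11.7). Its partner on chromosome 1, miR-30c-2-3p, stood at 3.13 and 30.4 ppm. miR-30b-5p stood at 24.8 and 50.3 ppm, 2.03-fold higher (recount 1.98-fold, 1.48 to 2.64). miR-30d-5p, the most abundant member, stood at 2059 and 3022 ppm and miR-30e-5p at 414 and 454 ppm.

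The let-7 family, the most abundant in both libraries, kept its sum while its members changed places. let-7 miRNAs repress growth genes such as Ras, Hmga2 and Lin28. The seed summed to 476802 ppm in maDC and 517617 in DCreg, 1.02-fold by recount (1.02 to 1.03). Of recounted let-7 reads, let-7c-5p held 17.03% in maDC and 33.9% in DCreg. let-7f-5p went from 37.2% to 27.4% and let-7a-5p from 22.98% to 15.99%. let-7e-5p went from 2.18% to 4.36%, and let-7b-5p from 8.63% to 11.7%. let-7g-5p went from 4.01% to 1.68% and let-7d-5p from 5.55% to 3.30%. The members thus fell into 3 with a larger share (b, c and e) and those with a smaller one. As the printed sequences show, let-7a-5p and let-7c-5p have the same 18 bases at their 5′ end, so shorter reads are divided between them.

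Deposited values gave other shares of the family, such as 10.7% and 19.8% for let-7c-5p and 24.3% and 19.1% for let-7f-5p, but the same direction for each of these. For tested miRNAs from 1 hairpin the deposited value per recounted read had a median of 1.44 in maDC and 1.27 in DCreg. For those from 2 hairpins it was 0.667 and 0.594. Levels of different miRNAs are therefore less certain than ratios of one miRNA between the libraries.

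**Figure D3:**
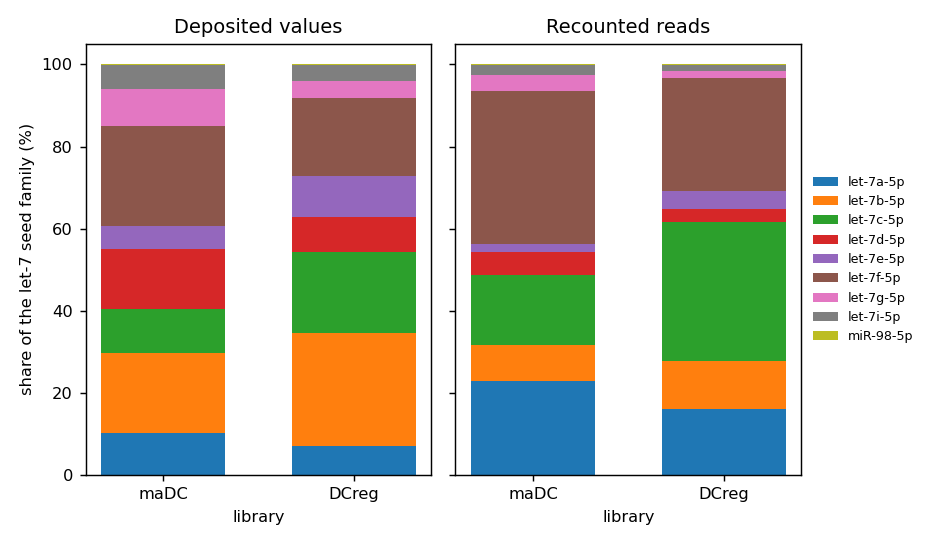
Share of each member in the let-7 seed family (%) in maDC and DCreg, by deposited values (left) and recounted reads (right). In both panels the let-7c-5p part is larger in DCreg, at 19.8% of deposited values and 33.9% of recounted reads, and the let-7f-5p part smaller.

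Other seeds also kept or changed their sum through members that moved apart. Of 32 families with at least 2 tested members, 4 had members called in both directions, and in 7 the most abundant member differed. In the family of miR-148a, miR-148b and miR-152, which represses antigen presentation through CaMKII, miR-152-3p stood at 826 and 2258 ppm (2.74-fold higher). miR-148a-3p stood at 93.4 and 32.6 ppm (2.86-fold lower; recount 2.28-fold, 1.83 to 2.86). The seed as a whole was 2.23-fold higher by recount (2.14 to 2.32). In the family of miR-25, miR-92a and miR-92b, miR-92b-3p was 13.1-fold higher and miR-92a-3p, at 380 and 174 ppm, 2.19-fold lower. miR-25-3p held most of that seed, at 4263 and 3157 ppm.

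In the miR-130 and miR-301 family the leading member changed in the deposited values. Its seed summed to 616 ppm in maDC and 1336 in DCreg, 2.17-fold higher. By recount, which counted no read of miR-130a-3p, the seed was 2.41-fold lower (2.19 to 2.65). miR-130b-3p had 564 ppm in maDC against 229 in DCreg (recount 2.50-fold lower, 2.26 to 2.76). miR-130a-3p, known from stem and progenitor cells, was listed at 30.4 and 1086 ppm, and no read of it was recounted in either library. The reads of this and other miRNAs that hold a run of AAAA are nearly missing from the deposited read lists. The runs are shown in capitals.
miR-130a-3p: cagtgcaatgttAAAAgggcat
miR-191-5p: caacggaatcccAAAAgcagctg
miR-511-3p: aatgtgtagcAAAAgacaggat

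Reads with AAAA made up 0.0595% of the DCreg list and 0.0544% of the maDC list, while reads with CCCC made up 0.951% and 0.527% and those with TTTT 1.01% and 0.936%. Of 6 tested miRNAs with AAAA, 5 had under 10 recounted reads, against 31 of 299 without it. For these a missing recount is no measure of the deposited value, which then rests on the series table alone. miR-191-5p, abundant in many blood cells, was listed at 27120 ppm in maDC and 7052 in DCreg, 3.85-fold lower. miR-511-3p, which lies in an intron of the mannose receptor gene Mrc1 and is known from alternatively activated macrophages, was listed at 563 and 1492 ppm, 2.65-fold higher. miR-129-2-3p was listed at 2.90 and 303 ppm, with 1 recounted read in DCreg. Beyond the AAAA group, miR-2183 and miR-452-5p were listed among the 15 largest ratios with under 10 recounted reads in the 2 libraries together.

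Several hairpins gave their arms in another proportion. Both arms were tested for 71 pairs. In 21 of these both arms were called in one direction (10 higher and 11 lower) and in 4 in opposite directions. In 23 1 arm alone was called, and in the other 23 none. An arm at 10 ppm in 1 library alone had its direction fixed by the limit. Among pairs with both arms higher, this held for at least 1 arm of miR-125b-1, miR-129-2, miR-183, miR-27a, miR-30a, miR-351 and miR-92b. Among those with both lower, it held for miR-155, miR-181b-1, miR-187, miR-200b, miR-296 and miR-9. The counts of agreeing arms thus rest partly on the limit. The median absolute difference between the log2 ratios of the arms was 0.89, and it was at least 1 in 34 pairs.

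A split with reads on both arms was found in miR-27b (chromosome 13, 63300712 to 63300784, plus strand). miR-27b-3p, which acts on lipid metabolism and Ppar genes, had 585 ppm in maDC against 1705 in DCreg, while miR-27b-5p stood at 76.9 and 30.4 ppm. The log2 ratios were 1.54 and -1.33, and by recount 1.42 and -1.51. miR-27a-3p, with the same seed as miR-27b-3p, was 2.08-fold higher, and the seed 2.25-fold by recount (2.18 to 2.32). miR-345 had the reverse pattern, with the 5p arm at 10.7 and 36.3 ppm and the 3p arm at 151.9 and 51.4 ppm. Its 5p share was 6.59% in maDC and 41.4% in DCreg (recount 6.51% and 40.0%). The other opposite pairs, miR-1249 and miR-200c, rest on few reads: miR-200c-5p had 0 recounted reads, and miR-1249-3p had 8 and 5.

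miR-223, which controls myeloid differentiation, kept its 3p arm at 635 and 669 ppm, while the 5p arm went from 329 to 58.0 ppm. The 5p share was 34.1% in maDC and 7.97% in DCreg (recount 28.9% and 4.83%). miR-142, a marker of all blood cells, showed the same on its other side, with miR-142-5p at 13196 and 9377 ppm and miR-142-3p at 366 and 94.6 ppm (log2 ratios -0.49 and -1.95). miR-221-5p stood at 476 and 564 ppm, although miR-221-3p was 2.29-fold lower. miR-23a-5p stood at 59.9 and 198 ppm, 3.30-fold higher, and miR-23a-3p at 3698 and 4121 ppm. In the pairs of miR-155, miR-9, miR-17 and miR-322, by contrast, the arms moved together. The log2 ratios of miR-17-5p and miR-17-3p were both -1.23, and those of miR-322-5p and miR-322-3p 2.75 and 2.73.

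**Figure D4:**
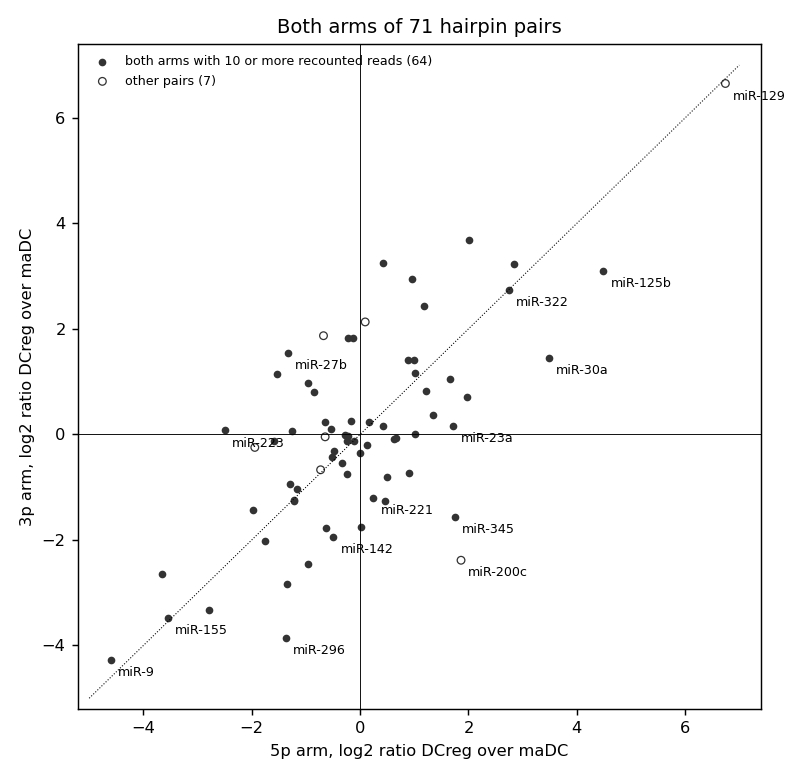
Log2 ratio of DCreg over maDC for the 5p arm (x) and the 3p arm (y) of 71 hairpin pairs; filled points have at least 10 recounted reads for each arm and the dotted line marks equal ratios. miR-27b lies in the upper left and miR-345 in the lower right, while miR-9, miR-155 and miR-322 lie on or near the line.

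Of all tested miRNAs 23.6% were higher and 27.9% lower, and the counts of the myeloid, lymphoid and cell cycle lists are read beside these shares. Of 17 tested members of the myeloid and dendritic cell list, 3 were at least 2-fold higher and 3 lower. Their median log2 ratio was 0.01, and the 16 recounted members had a recount median of -0.21. Of 5 tested dendritic and myeloid markers, which share members with that list, 1 was higher and 2 were lower. Their median was -0.49, and the 4 recounted markers, without miR-511-3p, had a recount median of -1.22. In both lists the 2 medians cover different members and are not a like comparison. The markers summed to 16412 ppm in maDC and 11777 in DCreg. miR-21-5p had 71808 ppm in maDC against 61873 in DCreg, and miR-29a-3p at 54571 and 57230 ppm. Of the 6 tested lymphoid arms 3 were lower (miR-342-5p, miR-181b-5p and miR-181d-5p) and none was higher. Of 13 tested cell cycle miRNAs 1 was higher, miR-322-5p, and 2 were lower, miR-17-5p and miR-92a-3p. Among the abundant miRNAs, miR-423-5p (14185 and 6118 ppm) and miR-103-3p (11546 and 4790 ppm) were 2.32- and 2.41-fold lower.

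Markers of other cells were low and went both ways. Of 9 stromal or mesenchymal miRNAs 4 were tested and 1 was higher. miR-143-3p stood at 40.9 and 155.2 ppm and miR-145-5p, of the same cluster, at 2.68 and 9.90, whereas miR-199a-3p stood at 120 and 79.6 ppm. The list summed to 236 ppm in maDC and 301 in DCreg, and miR-218-5p was at 0 in DCreg. The 2 endothelial miR-126 arms summed to 2.46 and 1.47 ppm. Of 4 muscle miRNAs, miR-1a-3p (14.3 and 129.5 ppm) and miR-206-3p (31.3 and 129.5 ppm) were higher, and miR-133a-3p was at 0 in both. The 7 epithelial miRNAs summed to 146.6 and 46.6 ppm, with all 4 tested members lower. Of the 4, miR-200b-3p and miR-200c-3p reached 10 ppm in maDC alone, which fixed their direction. The 3 neural miRNAs in the table summed to 426 and 479 ppm. Of these, miR-129-5p was higher (0.894 and 107 ppm), miR-128-3p stood at 421 and 370 ppm and miR-124-3p at 4.25 and 1.47 ppm. The erythroid list summed to 1.56 and 2.20 ppm, and the liver miR-122-5p stood at 77.3 and 70.4 ppm. The part of such cells in the results was not tested.

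The ends of reads also differed. For 85 miRNAs with at least 200 uniquely placed reads in each library and a known hairpin flank, the mean read length was shorter in DCreg for 82 and longer for 3. The median difference was -0.26 nt. Of these reads, 2.25% were 20 nt or shorter in maDC and 4.77% in DCreg, while HSC and imDC had 7.83% and 8.69%. The maDC library thus had the smallest share of short reads of the 4. The cause was not tested.

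The miR-181 family and miR-148b-3p had the largest shortening. Of miR-181a-5p reads, which tune lymphocyte receptor signalling, 13.3% (exact interval 12.7 to 13.9) were at most 20 nt in maDC and 45.6% (44.3 to 46.9) in DCreg. Its commonest read lost bases at the 3′ end only, so the seed in capitals is the same.
miR-181a-5p commonest read in maDC: aACATTCAacgctgtcggtgagttt
miR-181a-5p commonest read in DCreg: aACATTCAacgctgtcggtg
For miR-148b-3p the share of short reads was 17.6% and 53.0%, and for miR-22-3p 24.4% and 54.9%. In HSC and imDC 60.3% and 60.7% of miR-148b-3p reads were this short, but only 6.46% and 3.20% of miR-181a-5p reads. For miR-148b-3p maDC thus had the smallest share of the 4 libraries, and for miR-181a-5p DCreg had the largest.

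The commonest read differed between the libraries for 11 of the 85 miRNAs. In 10 of these, among them miR-181b-5p, miR-23b-3p and miR-142-5p, the DCreg read began at the same base and was shorter. Non-templated 3′ bases were found on a median of 18.3% of a miRNA's reads in maDC and 17.3% in DCreg. The median difference was -0.76 percentage points (quartiles -3.21 and 1.01), lower in DCreg for 50 miRNAs and higher for 35. Tails of A alone had a median of 7.96% and 7.05% and tails of T alone 3.87% and 4.37%. miR-155-5p, the miRNA with 345 reads left in DCreg, had tails on 15.97% and 27.8% of its reads. miR-98-5p had them on 18.3% and 37.9%, and miR-17-3p on 46.2% and 27.1%. Since reads with AAAA are nearly missing, tails of A on an end already rich in A are undercounted in both libraries.

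The 5′ start decides the seed, and it was steady for most miRNAs, with a median of 99.4% of reads at the deposited start in both libraries. In 6 of the 85 the share at the deposited start differed by 5 percentage points or more. The foremost was miR-140-3p, the most abundant miRNA in the DCreg values and known from cartilage. Its hairpin lies within Wwp2 (chromosome 8, 107551244 to 107551313, plus strand). Its reads started 1 base later in 51.9% (51.7 to 52.1) of 250634 maDC reads and in 79.2% (79.0 to 79.3) of 309045 DCreg reads, against 66.2% in HSC and 60.1% in imDC. DCreg had the largest share of the 4 libraries and maDC the smallest. In recounted ppm, the form with the deposited start went from 21311 to 15048, 1.42-fold lower (1.40 to 1.43). The form that starts 1 base later, with the seed CCACAGG in place of ACCACAG, went from 23576 to 62271, 2.64-fold higher (2.62 to 2.66). In the recount, the surplus of miR-140-3p in DCreg thus lay in reads that start later, while the deposited values give both forms together (85819 and 151631 ppm). Its 5p arm stood at 7.37 and 17.2 ppm.

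Smaller shifts were found in miR-101a-3p, whose reads began at the deposited base in 39.2% and 47.9%, and in miR-101b-3p (61.6% and 69.9%). For miR-23b-5p the share was 71.6% and 58.2%, for miR-1839-5p 77.9% and 71.6%, and for miR-21-3p 40.2% and 34.3%. miR-142-5p began 2 bases before its deposited start in 74.5% of maDC and 79.6% of DCreg reads.

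**Figure D5:**
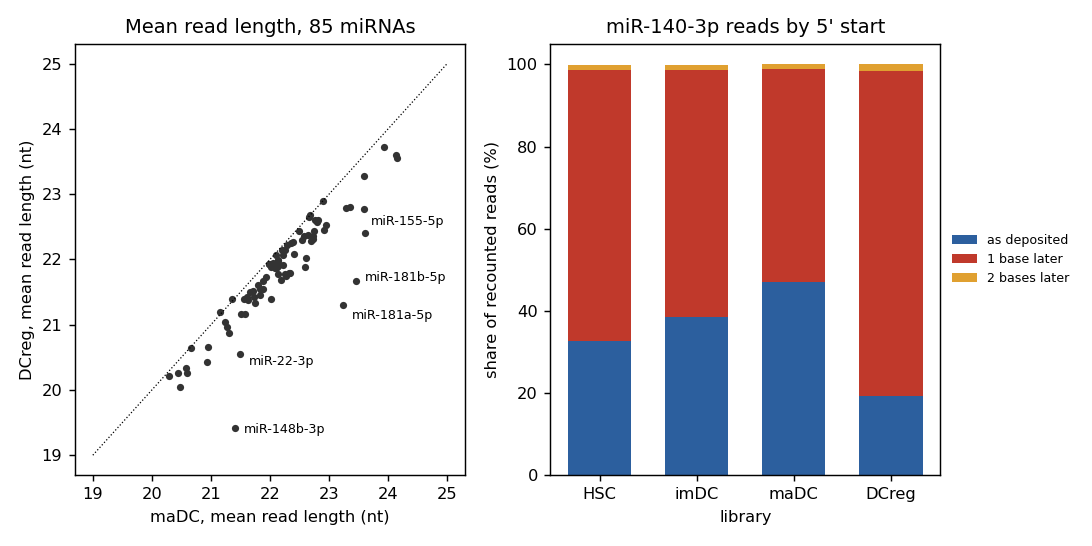
Left, mean read length (nt) of 85 miRNAs in DCreg against maDC; points under the dotted line of equal length are shorter in DCreg, which holds for 82, with miR-148b-3p and miR-181a-5p farthest from it. Right, share of miR-140-3p reads (%) by 5′ start in the 4 libraries; reads that start 1 base later make up 51.9% in maDC and 79.2% in DCreg.

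Set beside the other libraries, 43 of the 72 miRNAs that were higher in DCreg than in maDC had their highest value of the 4 libraries in DCreg, 21 in HSC and 8 in imDC. Of the 85 that were lower, 55 had their lowest value in DCreg, 28 in HSC and 2 in imDC. By the choice of these miRNAs maDC could not be the highest of the 72 or the lowest of the 85. Both counts therefore favour DCreg, and the share over all tested miRNAs was not counted. miR-31-5p, miR-182-5p, miR-129-5p and miR-322-3p belonged to those highest in DCreg, and miR-30a-5p and miR-1a-3p to those highest in HSC, at 1415 and 7773 ppm there.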

How the data were processed

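Small RNA of 18 to 30 nt was gel purified and amplified for 12 cycles, per the labels' protocols, with 1 library for each of 4 cell types. The authors deposited a score per mature miRNA and hairpin against miRBase release 19, whole numbers that are named as normalised counts in the header. Normalisation method, aligner and genome build: not given in the sources used here. They also deposited lists of unique reads with copy counts, per the file headers, of 16 to 39 nt. Deposited totals were 4475569 (maDC) and 2725948 (DCreg).

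Scores were summed per mature name, scaled to ppm and compared as log2 ratios with a pseudocount of 0.5; other folds are plain ratios. The recount took exact matches of 16 nt or more that began within 2 nt of the deposited start, with up to 5 unmatched 3′ bases; equal matches were divided. It was tested on simulated reads of 336 names of the maDC profile. Hairpin flanks came from RefSeq and positions from GENCODE M21 (GRCm38), which placed 667 of 715 hairpins. Python 3.11.15, pandas 2.3.3 and scipy 1.17.1 were used.

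The rule for named miRNAs took the 15 largest and 15 smallest ratios, the 10 most abundant of each library, members of fixed lists at 10 ppm or more, both arms of named hairpins, the 5 clusters and 8 seed families with the largest and smallest ratios, and the 10 largest changes in read ends. The members and lists were chosen with earlier results of these data known. Alternatives were the recount, 4 scalings, other limits for level, fold and pseudocount, and other definitions of clusters, seeds and read ends. The 5 miRNAs just above the 10 ppm limit reached 10.1 to 10.6 ppm and the 5 just below it 9.90 ppm. Reverse-complement names cannot be told apart by strand in the deposited values: miR-3074-5p is the complement of miR-24-3p, was listed at 1161 and 1500 ppm beside 1151 and 1506, and had 3 and 1 recounted reads.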

Additional observations from a re-analysis of the deposited data

Results flagged for a closer look

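Reads that the recount gave to no miRNA held 5 sequences that were common in DCreg, and they are given here because they lie outside the miRNA measurement. A sequence of 17 nt that ends in CCA had 60834 copies in DCreg and 24698 in maDC, 3.30-fold higher per read. One of 20 nt had 24124 and 12292 copies, and one of 19 nt 19223 and 4348. One of 18 nt, also ending in CCA, had 18908 and 10143 copies. A further one of 17 nt had 11496 copies in DCreg and 77 in maDC, a 200.1-fold difference per read. Whether library preparation differed was not tested.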

How the results depend on the processing

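Beside 72 higher and 85 lower miRNAs, a limit of 100 ppm gave 28 and 39, no limit 248 and 224, and a fold of 4 gave 36 and 24. The recount gave 39 higher, and totals without the 5 most abundant miRNAs 46 lower. The median log2 ratio of -0.25 became 0.022 with the median of ratios and 0.12 without the 5 most abundant, so its sign depends on the scaling. It was -0.24 with the trimmed mean of M-values, -0.54 with all reads as the total, -0.38 in the recount, -0.34 at 100 ppm, -0.18 with no limit, -0.24 with a pseudocount of 5 and -0.23 with the largest hairpin entry. Lower clusters were 5 without the 5 most abundant, and higher clusters 5 at 100 ppm. Lower seed families were 9 with the median of ratios, 6 without the 5 most abundant and 7 at 100 ppm; higher ones were 6 with all reads as the total and 7 in the recount. Opposite arms were 2 in the recount and 0 at 100 ppm, and hairpins whose more abundant arm differed, 8 by the deposited values, were 3 and 1. At 100 ppm 6 hairpins had both arms called in one direction. The commonest read differed for 6 miRNAs with 1000 reads, where the tail difference was -0.025 points, and -0.76 with exact 5′ starts. The cause of these changes was not tested beyond the smaller number of miRNAs that a higher limit leaves.

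In the recount the direction reversed for 3 of 135 called miRNAs: miR-1249-3p (-0.14), miR-1949 (-0.15) and miR-1b-5p (-0.59), the last being the reverse complement of miR-1a-3p. With reads of several matches left out, these were -0.14, -0.15 and -0.59. The myeloid and dendritic cell list's median was -0.28 with all reads as the total and -0.21 in the recount, which covers 16 of its 17 tested members. That of the liver list was 0.14 with the median of ratios and 0.23 without the 5 most abundant. Each of the 4 scalings shifts every log2 ratio by the same amount, at most 0.37. They therefore could not reverse any of the 157 called miRNAs, and the direction of these was not tested by them. For the TLR and NF-kB list 9 to 12 members were lower over these alternatives, and for the progenitor list 8 to 11 were higher. No paired analysis was possible because each cell type has 1 library. Under 10 recounted reads, folds are uncertain by more than 2-fold on counting alone.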
